A study of Mus musculus with 6 samples.

Results

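The major urinary protein (Mup) gene array of mouse chromosome 4 was described by the binding sites of tagged thyroid hormone receptor β1 (TRβ1) called in it. Members were all deposited ChIP-seq peaks with a midpoint between 59.9 and 61.8 Mb of chromosome 4 on mm9, which gave 226 of 98191 peaks. Of these, 168 came from the list of livers given triiodothyronine (T3), 58 from the list of livers without it, and 0 from the GFP control list. The region was chosen with its peak numbers already known, so the numbers of peaks, and which list they came from, are descriptions and were not tested. The gene names Mup1, Mup2, Mup3, Mup7, Mup8, Mup10 and Mup11 belong to the array, but no mm9 annotation was used and no peak was tied to a gene.

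The livers came from mice heterozygous for the biotin ligase BirA, 9 to 10 weeks old. Their diet held propylthiouracil (PTU), which blocks the making of thyroid hormone, for 3 weeks before they received an adenovirus through the tail vein. GFP PTU livers got the virus with GFP alone and then saline, TRb PTU livers the virus with GFP and biotinylated TRβ1 and then saline, and TRb T3 livers the same TRβ1 virus and then T3, with injections over 4 days. Biotinylated TRβ1 was captured on streptavidin agarose, and there was 1 library per condition. The receptor mapped was thus the one supplied by the virus. The labels name neither its promoter nor the number of animals per library, and peak lists hold no expression by which the liver label could be checked.

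Mup genes encode small lipocalins that the liver secretes, that pass into urine and that carry volatile pheromones. They are among the most strongly expressed genes of mouse liver, and their expression responds to growth hormone, androgen and thyroid hormone. The genes and many pseudogenes arose by repeated duplication, so neighbouring copies are very alike in sequence. TRβ1 binds DNA mainly as a dimer with the retinoid X receptor, with or without hormone.

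In the RefSeq gene table (GRCm38.p6) 46 gene symbols began with Mup, of which 22 were numbered Mup genes and 21 were annotated as pseudogenes. The member genes followed each other in the order Mup7, Mup2, Mup8, Mup1, Mup10, Mup11 and Mup3, with other Mup genes between some of them. Promoter sequences were found for 5 of the 7 members (Mup2, Mup3, Mup7, Mup10 and Mup11) and for 9 of 15 other Mup genes. All of these 14 promoters lay on the minus strand except that of Mup6. The stretches below, from RefSeq, show how alike the copies are, which bears on every count that follows, because reads from near-identical sequence may not be placed with certainty between copies. Each is 115 bases long, from the minus strand of GRCm38.p6, and capitals mark bases that differ from Mup2.
Mup2: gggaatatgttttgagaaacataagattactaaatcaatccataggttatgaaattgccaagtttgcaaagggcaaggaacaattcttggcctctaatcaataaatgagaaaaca
Mup7: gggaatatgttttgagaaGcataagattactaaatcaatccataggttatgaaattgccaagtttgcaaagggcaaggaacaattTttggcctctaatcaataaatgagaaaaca
Mup10: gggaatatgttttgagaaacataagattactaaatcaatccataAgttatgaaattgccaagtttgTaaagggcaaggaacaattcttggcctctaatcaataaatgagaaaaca
Mup11: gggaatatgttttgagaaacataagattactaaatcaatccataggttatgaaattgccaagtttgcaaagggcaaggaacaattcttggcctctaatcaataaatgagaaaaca

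The stretches lie at chr4:60139991-60140105 (Mup2), chr4:60070476-60070590 (Mup7), chr4:60582291-60582405 (Mup10) and chr4:60662502-60662616 (Mup11) of GRCm38.p6, and these positions cannot be set against the mm9 positions of the peaks. They begin 249, 115, 250 and 221 bases before the annotated gene start, respectively. Mup11 was identical to Mup2 over the stretch. Mup7 and Mup10 each differed from Mup2 at 2 bases (98.3% identity), A19G and C86T in Mup7 and G45A and C67T in Mup10, with the Mup2 base first and positions counted from 1 at the 5′ end of the stretch. The start of the stretch was not found in the Mup3 promoter.

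Motifs were searched on both strands of the promoter sequences, which run from 250 bases before to 50 bases after each gene start. The receptor's core element AGGTCA was present in 1 of the 14 Mup promoters, that of Mup4, and in 16.3% of all 32851 promoters of the table. Its direct repeat with 4 bases between (DR4), which contains that core element at both ends, was in 0 of the 14 and in 0.0152% of all. The STAT element TTCNNNGAA, through which growth hormone acts on many liver genes, was in 0 of the 14 and in 8.30% of all. A count of 0 says only that the letters are absent from these windows.

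The array carried far more peaks in TRb T3 than in TRb PTU. A TRb T3 peak with no overlapping TRb PTU peak is called T3-only, the reverse PTU-only, and the rest shared. Of the 168 TRb T3 peaks, 115 were T3-only (68.5%), against a background of 38.7% over the whole list. PTU-only peaks numbered 4 of 58 (6.90%), against 46.1%, and the other 54 were shared (background 53.9%). Both numbers entered the choice of the region and peaks of different copies may share reads, so they carry no interval and nothing is read from them. Depth is unknown, as the lists give no reads, and no source used here states how reads that match several copies were handled. The 0 GFP PTU peaks of 107 allow a share of up to 2.80% of that list, by counting error only. The array held 168 of 46092 TRb T3 peaks and 58 of 51992 TRb PTU peaks. At such shares a list of 107 peaks would often hold 0, so the 0 is no check of background here.

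The flanks did not show this balance. In the region of equal length before the array, 20 of 52 TRb T3 peaks were T3-only (38.5%) and 12 of 44 TRb PTU peaks PTU-only (27.3%). In the region after it, the counts were 20 of 64 (31.3%) and 43 of 87 (49.4%). None of 1395 other windows of 1.9 Mb on chromosomes 1 to 19 and X held more than 151 TRb T3 peaks, and their median was 26. Among the 354 windows with at least 50 TRb T3 peaks, the T3-only share had a median of 35.1% and a highest value of 62.3%.

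**Figure D1:**
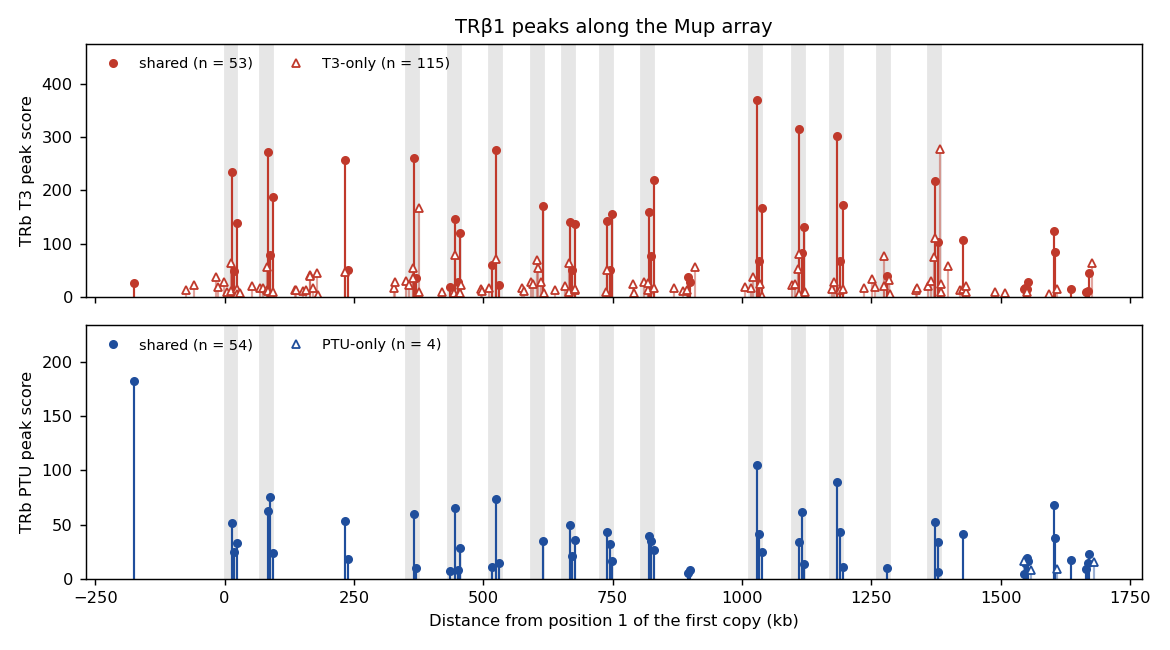
Peak score (y axis, the peak caller's value) against distance from position 1 of the first copy (x axis, kb) for TRb T3 (upper panel) and TRb PTU (lower panel), with shared peaks as filled circles, peaks of a single list as open triangles and the 14 best-matched copies in grey. The 53 shared and 115 T3-only TRb T3 peaks recur in groups, while the 4 PTU-only peaks all lie beyond the last grey band; the y axes are separate because scores are not compared between lists.

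The TRb T3 peaks formed a group that recurred along the array in the same orientation. The group was defined from the run of peaks that, laid over the whole array, met the most TRb T3 peaks. This run had 10 peaks, numbered here as positions 1 to 10, at 0, 5.17, 12.11, 12.89, 13.94, 14.41, 19.05, 19.68, 23.97 and 24.78 kb from its first midpoint. A place where at least 3 positions were met within 100 bp was counted as a copy. There were 19 such places, holding 107 of the 168 TRb T3 peaks.

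Places differed in how well they matched. In 14 of them 5 or more positions were met, and all 14 had the same orientation. The other 5 places met 3 positions each, and 1 of these was in reverse. Meeting 3 positions is common: 19.4% of the 45826 TRb T3 peaks on chromosomes 1 to 19 and X outside the array did so in the best placement. Meeting 5 is not, with 0.244% outside the array (112 peaks) against 47.0% of array peaks (79 of 168). This scan lays a position exactly on the peak counted, so it takes in fewer peaks than the 92 that the 14 copies hold. The values by position below are therefore given for the 14 better-matched copies. The template came from the array itself, so its better match there is a description.

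The template copy, copy 2, shows the whole group. Its TRb T3 peaks on chromosome 4 (mm9) began with position 1 at 60148255 to 60148477 (score 16.9) and position 2 at 60153436 to 60153637 (16.98). Positions 3, at 60160403 to 60160542 (13.4), and 4, at 60161160 to 60161345 (56.7), followed. Position 5, the strongest, was at 60162115 to 60162495 (272), with position 6 next to it at 60162702 to 60162859 (11.8). Position 7 was at 60167172 to 60167664 (79.5) and position 8 at 60167976 to 60168107 (4.54). The group ended with position 9 at 60172194 to 60172483 (187) and position 10 at 60173011 to 60173278 (10.7). TRb PTU had peaks at only 3 of these 10 positions, namely 5 at 60162199 to 60162411 (62.1), 7 at 60167152 to 60167589 (75.4) and 9 at 60172193 to 60172458 (23.9).

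**Figure D2:**
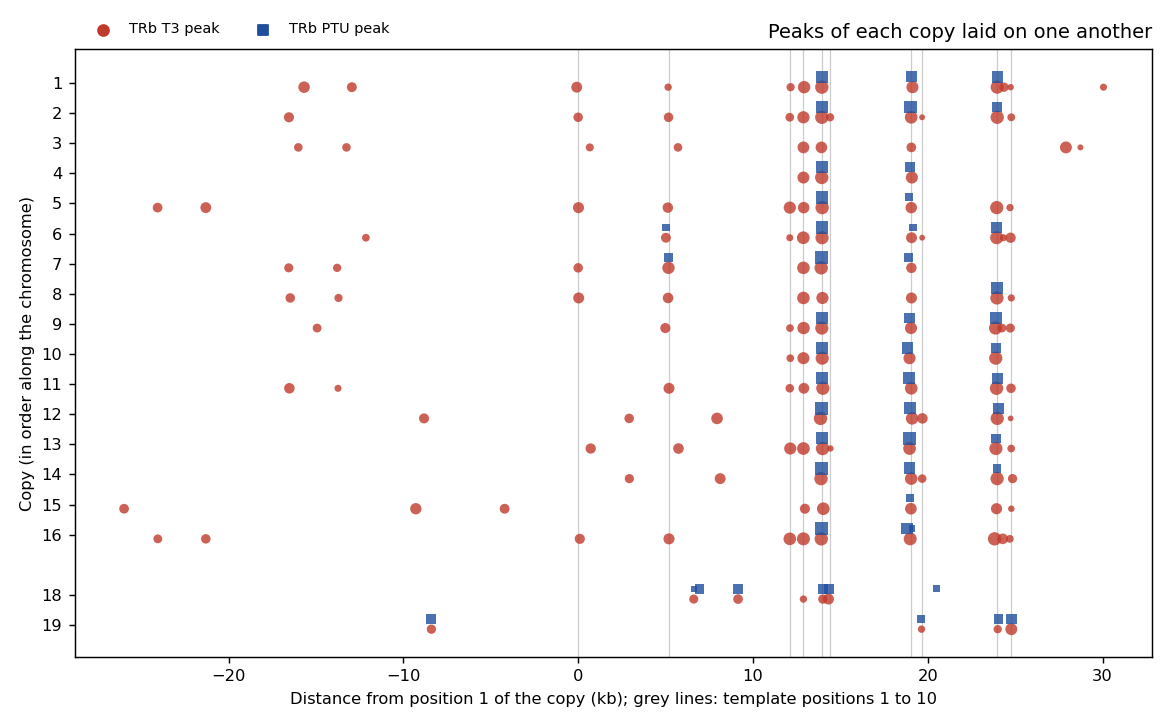
Peaks of the 18 places in the template's orientation, 1 row per place, against distance from position 1 (x axis, kb); red circles are TRb T3 peaks, blue squares TRb PTU peaks, symbol size grows with the percentile of the score in its list, and grey lines mark positions 1 to 10. In copies 1 to 16 blue squares fall mainly at positions 5, 7 and 9, but not at all 3 in every copy. All 3 have one in 9 of the 14 better-matched copies, while copy 8 has one at position 9 alone and copy 15 at position 7 alone. Place 3 has none. Positions 3, 4 and 10 in copies 1 to 16 carry red circles alone, and places 18 and 19 do not show the group.

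The distance between copies was near 80 kb. Over the 18 steps between neighbouring places the median was 81277.5 bp, with a range of 61168.5 to 208600 bp, and 15 of the 18 lay between 60 and 100 kb. These steps include the 5 places that met only 3 positions, and position 1 of the reversed place 17 lies at its high end. Between the 14 better-matched copies alone, the 13 steps had a median of 80134 bp and a range of 61168.5 to 282124.5 bp. The distances were closely alike in places: 4 of them, from copy 5 to copies 6, 7 and 8 in turn and from copy 10 to 11, measured 80111, 80091, 80134 and 80440 bp. The widest of the 18 steps, 208600 bp, lay between copies 11 and 12, and the step from place 4 to copy 5 measured 132389 bp. Within the 14 copies the spacing could vary little, because a peak counted as a position only within 100 bp of the template and groups with another step were left out. Positions 5 and 7 lay a median of 5100 bp apart (SD 73.7 bp over 14 copies), positions 7 and 9 a median of 4890.5 bp (SD 32.25 bp over 12 copies), and positions 4 and 5 a median of 1054.75 bp (SD 28.1 bp over 12 copies).

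**Figure D3:**
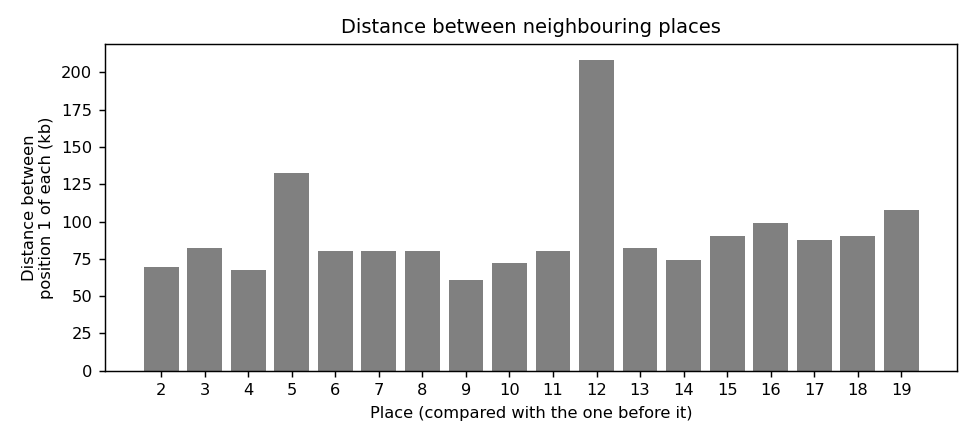
Distance from each place to the one before it (y axis, kb, between their position 1), as bars for places 2 to 19. Most bars stand between 60 and 100 kb, and the bars of copies 5 and 12 are the tallest, at 132389 and 208600 bp.

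Only part of the group was called without T3. In the 14 copies, positions 5, 7 and 9 had 40 TRb T3 peaks, and a TRb PTU peak overlapped 35 of them (87.5%). The other 7 positions had 52 TRb T3 peaks, of which 1 was overlapped (1.92%). Over all TRb T3 peaks of the series the overlapped share was 61.3%, which is not matched for score to either group. The median TRb T3 score was 138.53 at positions 5, 7 and 9 and 18.71 at the other 7 positions. With all 19 places, the counts were 39 of 47 and 4 of 60. Positions 5, 7 and 9 were singled out after these values were seen, and peaks of different copies may rest on the same reads, so no interval or test is given.

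Position 5 was the strongest member in both lists. All 14 copies had a TRb T3 peak there, with scores from 54.3 through a median of 226 to 370. Its TRb PTU peaks, in 12 copies, scored from 33.6 through 56.0 to 105. The highest value of both lists at this position was in copy 12, at 61107128 to 61107544 in TRb T3 (rank 23 of 46092) and 61107255 to 61107526 in TRb PTU (rank 3656 of 51992). Position 5 was the highest-scored template peak in TRb T3 in 11 of 14 copies and in TRb PTU in 10 of 14. In copy 16, with 218 at position 5, a higher TRb T3 peak (277) lay 150 bp from position 9 and was not counted.

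Among the 14 copies, those that lacked a TRb PTU peak at position 5 had the lowest TRb T3 scores there. These were copy 8 (54.3) and copy 15 (76.7), while the 12 copies with a TRb PTU peak had TRb T3 scores of 140 or more. Within the 14 copies these groups did not overlap, but only 2 copies lacked the TRb PTU peak. Both copies still had a TRb PTU peak elsewhere, at position 9 in copy 8 (score 34.8) and at position 7 in copy 15 (10.2). Place 3, which met 3 positions, had 40.0 at position 5 in TRb T3 and no TRb PTU peak at any position. Place 18, which also met 3 positions, had only 15.96 there in TRb T3 but did have a TRb PTU peak (19.1). Over all 19 places the groups therefore overlapped, with T3-only peaks at position 5 scoring 21.7 to 76.7 and shared ones 15.96 or more.

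Position 7 was called in all 14 copies in TRb T3, with scores from 23.4 through a median of 51.0 to 103. A TRb PTU peak overlapped 13 of them, with scores from 7.77 through 31.9 to 75.4, and copy 8 was the exception. In copy 16, 2 TRb PTU peaks overlapped it, and the values are those of the first. The TRb T3 peaks at this position were wide, with a median of 490 bp against 193 bp over the whole list. Medians above that of the list were also seen at positions 5 (380.5 bp), 9 (327 bp), 1 (301 bp), 10 (279.5 bp) and 2 (228 bp). The TRb PTU partners at position 7 had a median of 230 bp, against 210 bp for the list. The TRb T3 midpoint lay at a higher coordinate than the TRb PTU midpoint in 12 of 13 copies, by a median of 98 bp. At positions 5 and 9 the median difference was -1 and -12.5 bp.

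Position 9 had strong peaks with T3 and modest ones without. Its 12 TRb T3 peaks scored from 31.9 through a median of 161 to 219, which placed the median peak at percentile 97.1 of the list. TRb PTU peaks were called at 10 of them, with scores from 10.4 through 25.5 to 35.4 and a median percentile of 59.9. The 2 T3-only peaks were those of copy 5 (166) and copy 15 (31.9), so a high TRb T3 score did not always come with a TRb PTU peak. These counts leave out a T3-only peak of copy 16 (277), which lay 150 bp from position 9, outside the limit of 100 bp. In copies with both positions in a list, position 9 outscored position 7 in 11 of 12 in TRb T3, whereas position 7 outscored position 9 in 6 of 9 in TRb PTU. The sets of copies differ between the lists and copies may share reads, so this contrast was not tested.

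Position 4 was never called in TRb PTU although its TRb T3 peaks were of good rank. The position, a median of 1054.75 bp before position 5, had a TRb T3 peak in 12 of 14 copies, with scores from 20.4 through a median of 64.3 to 111. A TRb PTU peak overlapped 0 of these 12. Among all 4992 TRb T3 peaks with a score between its quartiles (47.1 and 74.2), a TRb PTU peak overlapped 78.9%. Its scores were as high as those of position 7, of which 13 of 14 were overlapped. The peaks of position 4 were narrower, with a median width of 193 bp against 490 bp at position 7. Neither comparison was matched for width, and a wider peak can be overlapped more easily. The 12 peaks may also rest on the same reads, so they are not separate observations. The region was chosen with its T3-only count known and position 4 was picked out after its values were seen, so the contrast was not tested.

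**Figure D4:**
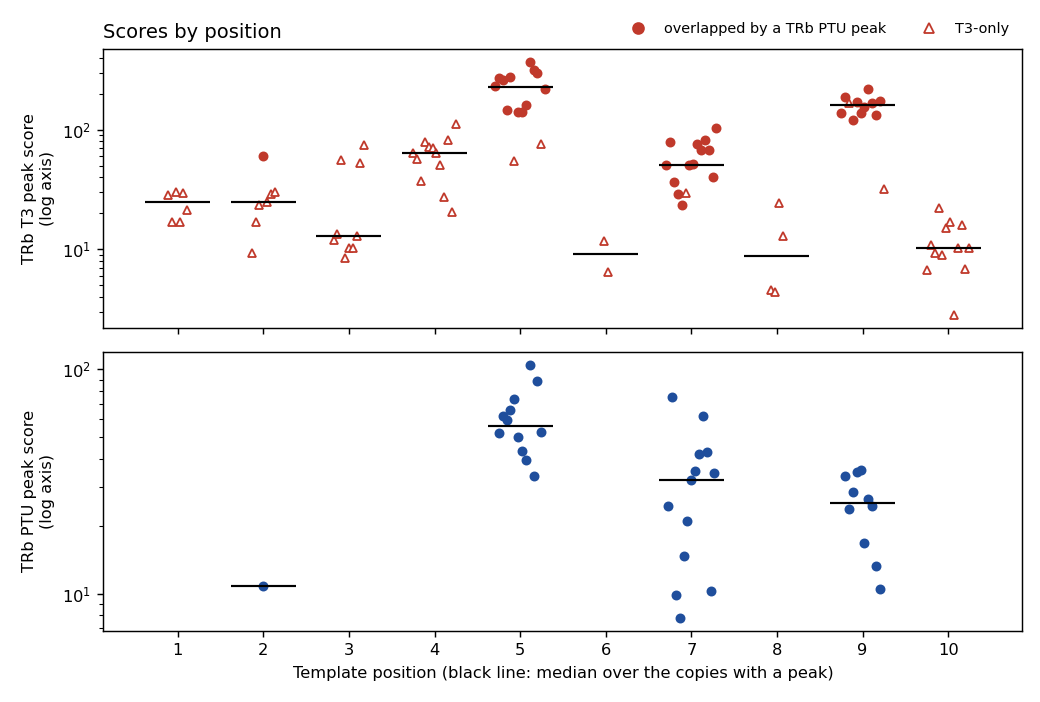
Scores at template positions 1 to 10 in the 14 best-matched copies (log axes), TRb T3 above and TRb PTU below, with 1 symbol per copy and a line at the median; open triangles are T3-only. Position 4, with a median of 64.3 in TRb T3, holds open triangles alone, while positions 5, 7 and 9 hold mostly filled circles and nearly all TRb PTU peaks.

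The remaining positions were weaker. Positions 1, 2, 3 and 10 had TRb T3 peaks in 6, 7, 9 and 12 of the 14 copies, with median scores of 24.7, 24.8, 13 and 10.2 against 22.1 for the whole list. Positions 6 and 8 were met in 2 and 4 copies, with medians of 9.11 and 8.77. The single overlapped peak among these 6 positions and position 4 was position 2 of copy 7 (TRb T3 score 59.8, TRb PTU score 10.8). In copy 6 both lists had a peak near position 2, at 60515541 to 60515703 in TRb T3 and 60515561 to 60515694 in TRb PTU, which missed the position by more than 100 bp.

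A further pair of TRb T3 peaks recurred before the group. In 7 places, 2 peaks lay 2733 to 2780.5 bp apart (median 2759 bp). Only pairs 2500 to 2900 bp apart were searched for, so their like spacing was partly fixed in advance. All 14 peaks were T3-only (38.7% over the whole list and 68.5% in the array), with scores of 8.41 to 37.5. In places 1, 3, 7, 8 and 11 the first peak of the pair lay 15678.5 to 16555.5 bp before position 1. In copies 5 and 16 it lay 24058.5 and 24044.5 bp before it. This pair was picked out after its values were seen.

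Ranks of the paired peaks moved the same way at the 3 main positions. Ranks were taken among pairs of 1 peak from each list, as percentiles within each list. Over all 27010 pairs of the series 48.9% ranked higher in TRb T3, with a median difference of -0.51 percentile points. In the array 47 of 52 did (90.4%), with a median of 27.6 points. In the 14 copies the median difference was 27.3 points at position 5 (12 pairs, range 12.3 to 48.1), 23.0 at position 7 (12 pairs, 2.38 to 48.1) and 55.7 at position 9 (10 pairs, 39.6 to 84.0). The ranges of positions 5 and 9 overlapped between 39.6 and 48.1 points. Copies may share reads and these positions were singled out after their values were seen, so the difference between positions was not tested.

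**Figure D5:**
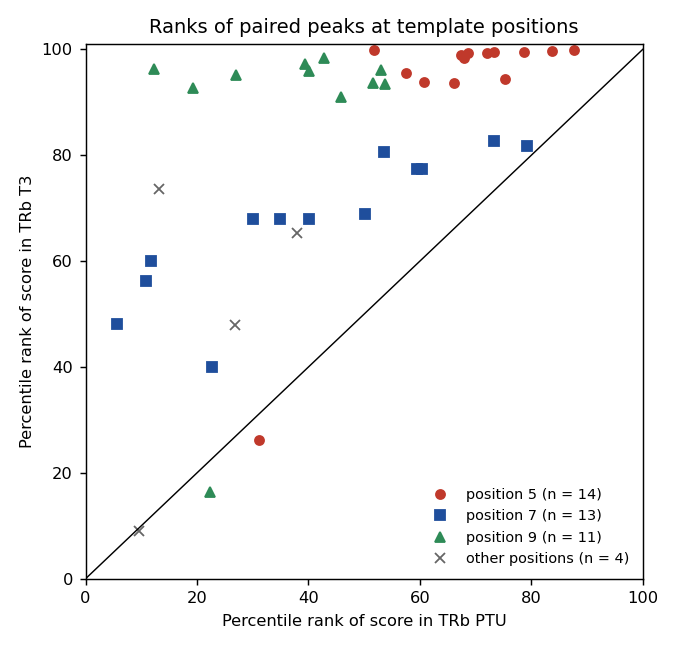
Percentile rank of the score in TRb T3 (y axis) against that in TRb PTU (x axis) for pairs at template positions of all 19 places, with the line of equal rank. Position 9 (green triangles) lies highest above the line, by up to 84.0 points, and the symbols on or under the line come from places 18 and 19.

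The strongest TRb T3 peaks of the array were nearly all at positions 5 and 9. Of the 10 highest, 8 were at position 5, with scores from 234 to 370, in copies 12, 13, 14, 7, 2, 5 and 1 and in place 4. The peak ranked 10 among them was position 9 of copy 11 (219). The other, at 61462388 to 61462974 (score 277), was T3-only and lay 150 bp from position 9 of copy 16, just outside the limit of 100 bp. The 5 highest TRb PTU peaks were position 5 of copies 12 (105), 14 (88.9) and 7 (73.9), position 7 of copy 2 (75.4), and a peak outside the copies.

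That peak stood apart from the repeated group. It was the first of the array, at 59902970 to 59903263, with a TRb PTU score of 182 (rank 994 of 51992). Its TRb T3 partner at 59902993 to 59903191 had a score of 26.2 (rank 20127 of 46092), so at this site the order of the lists was the reverse of that in the copies. The nearest TRb T3 peak outside the region was at 59834978 to 59835177 (36.3). At the other end, the last TRb T3 peak inside was at 61755492 to 61755703 (64.1) and the next outside at 61811945 to 61812098 (12.04).

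Beyond the last well-matched copy, PTU-only peaks were present. From there to its end, 11 of 22 TRb T3 peaks were T3-only and 4 of 15 TRb PTU peaks PTU-only, against 38.7% and 46.1% over the whole lists. From the first to the last well-matched copy the counts were 100 of 141 and 0 of 42. The 4 PTU-only peaks were at 61623771 to 61623914 (score 16.6), 61637282 to 61637509 (7.84), 61687418 to 61687595 (9.16) and 61760114 to 61760252 (15.2). Of 11 paired peaks in this end part, 7 ranked higher in TRb T3 (48.9% over all pairs), with a median difference of 15.5 points.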

How the data were processed

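Peak lists of 3 ChIP libraries (GFP PTU, TRb PTU, TRb T3) were used, with groups taken from sample titles. Input libraries were not analysed here. The submitters' processing notes name Bowtie, SAMtools, MACS2 and mm9. No source used here gives versions, settings, the control or the treatment of multiply matching reads. Each deposited score is the authors' peak caller value, of unstated statistic, and was used only within a list. No depth is known.

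Peaks were shared if they overlapped by at least 1 bp. Runs of TRb T3 peaks were split at gaps over 15 kb and each run was laid on all array midpoints in both orientations. Places were taken from the best match down, without overlap, if at least 3 positions were met within 100 bp. Planned binomial intervals over array peaks are not printed, since peaks of different copies may share reads. Pairs were peaks each overlapping a single peak of the other list. Promoters came from RefSeq (GRCm38.p6). The code that lays a known template was run on simulated sets of 168 peaks. Pooled over the sets, it found 36 of 36 copies made in 38 places, and 34 of them in 34 places with 5 or more positions met. The template was given and the shifts stayed inside the tolerance, so finding most copies was nearly fixed in advance. The step that chose the template was not tested. Positions are 1-based.

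Named peaks are those of the fullest copy, the 10 highest TRb T3, the 5 highest TRb PTU, the PTU-only, and the first and last peaks. Members, lists and rules were chosen with earlier results of these data known. The 15 kb gap, the limit of 5 positions and the added alternatives were chosen after seeing the data. Python 3.11.15, numpy 2.4.6, pandas 2.3.3, scipy 1.17.1 and matplotlib 3.10.9 were used.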

Additional observations from a re-analysis of the deposited data

How the results depend on the processing

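No paired analysis was possible because there was a single library per condition. With scores limited to the median and above in each list, T3-only peaks fell from 115 to 58 and TRb PTU peaks from 58 to 34, since the filter removes peaks and the partners of others. T3-only peaks numbered 96 to 117 under the other alternatives (midpoints within 200 bp or 1 kb, equal numbers of peaks, and a region from 60 to 61.5 Mb). TRb T3 template peaks met by TRb PTU numbered 43, and 30 to 58 under the alternatives. The number of places was 19, and 14 to 20 with tolerances of 50 or 250 bp, at least 4 positions, the score filter, the second-best template or runs split at 10 or 20 kb. The median distance stayed between 80134 and 82120 bp. The median paired rank difference was 27.6 points, and 27.7 and 33.2 under its alternatives. Unknown depth and read placement limit every count.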

Other observations

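Peaks between copies 11 and 12 resembled a copy without meeting the limit of 100 bp. TRb T3 peaks at 60973910 to 60974184 (score 38.8) and 60978859 to 60979252 (29.1) lay 5008.5 bp apart, both were shared, and a peak at 60972948 to 60973101 (13) lay 1022.5 bp before them. The next peak, at 60987763 to 60988109 (57.3, T3-only), followed after 8880.5 bp, where positions 7 and 9 of the 14 copies are a median of 4890.5 bp apart. Place 3 had the same longer step, with 8842.5 bp from position 7 to the peak at 60258227 to 60258539 (45.5, T3-only). With a tolerance of 250 bp, the peaks between copies 11 and 12 were instead counted as a place in reverse orientation that met 3 positions. These were noticed after the values were seen.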
